A study of Homo sapiens with 12 samples.

Results

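Aminoacyl-tRNA synthetases are the enzymes that join each amino acid to its tRNA, and so they supply the ribosome with every building block of a protein. Human cells hold a cytosolic set, which serves ribosomes in the cytoplasm, and a mitochondrial set, which is also encoded in the nucleus, made in the cytoplasm and imported to serve mitochondrial translation. Several cytosolic synthetases sit together in the multi-synthetase complex, and the mRNAs of many of them are known targets of the stress-induced transcription factor ATF4. The mRNAs of both sets were followed here through ribosomal fractions of MCF10A, an established line of human breast epithelial cells. The unaltered line does not form tumours. The members were chosen by gene symbol: a one-letter amino acid code followed by ARS and, where present, 1 or 2, plus FARSA, FARSB and the joined glutamyl-prolyl enzyme EPRS1. The rule found 36 of the 56632 genes in the tables, 20 cytosolic and 16 mitochondrial, the mitochondrial ones being those whose symbol ends in 2. All 36 passed the filter on low counts. GARS1 and KARS1 each encode both the cytosolic and the mitochondrial enzyme from a single gene and were counted as cytosolic. The rule's letters do not include F, so FARS2, the mitochondrial phenylalanyl enzyme, is no member and is given apart.

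The study compared wild type (WT) MCF10A cells with CBFB_KO cells, in which the gene for CBFB, the partner of RUNX transcription factors, had been disrupted with CRISPR-Cas9 and single-cell clones selected, to ask how CBFB acts on translation. The paper reports that CBFB_KO cells, unlike WT, were transformed in culture and gave rise to tumours in immunocompromised mice. Before lysis, cells of both genotypes received cycloheximide at 100 µg/ml for 30 min, which holds ribosomes on the mRNA. Lysates were separated by density on sucrose from 10 to 50%. RNA of the free fraction (mRNA without a full ribosome), of the monoribosomal fraction (mono) and of the pooled polyribosomal fraction (poly) was sequenced, with 2 libraries in each of 6 conditions and 12 in all. Neither the labels nor the methods say that replicates were separate cultures, so p-values measure the spread between these samples, and since no RNA was spiked in, values are relative within a fraction's library and say nothing of how much mRNA a fraction held.

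Library totals lay between 41050325 and 63886726 counts. The CBFB_KO free libraries stood apart: 71.56% and 87.22% of their counts came from the mitochondrial genome, against 1.26% to 20.81% in the other 10, which left 13568143 and 5247878 counts on all other genes. Synthetase mRNAs were still counted there, with 204 to 1660 counts per cytosolic member and 82 to 624 per mitochondrial member in replicate 1, and 75 to 1218 and 14 to 401 in replicate 2. The CBFB_KO poly libraries were close to each other, with a mean chi-square of 2.2 per gene against 117.2 to 934.4 in the other pairs. This is above sampling noise but does not show that they are separate samples. They were kept as 2 samples, and if they are 1 sample the shared spread is estimated too low. Results for 1 pooled sample are given for CBFB_KO poly comparisons where they differ. Fewer members also passed in free between genotypes with the pair as 1 sample. CBFB mRNA itself stood at 5.37 and 12.6 in WT free, 8.03 and 6.20 in WT mono, 5.72 and 6.84 in WT poly, 11.3 and 14.1 in CBFB_KO free, 4.79 and 3.89 in CBFB_KO mono, and 3.59 and 4.01 in CBFB_KO poly, in TMM-CPM (CPM, a gene's counts relative to the library total, adjusted between libraries by the trimmed mean of M-values). It passed the test in no fraction between genotypes (adjusted p = 0.373, 1.0 and 1.0, edgeR's quasi-likelihood test), and a small CRISPR change need not alter an mRNA's level, so this does not check the genotype. The basal keratin KRT5 lay between 83.93 and 2100.72 TPM (a share of transcripts that corrects for gene length), but the basal KRT14 and TP63 had medians of 7.99 and 2.015. The luminal keratins KRT8 and KRT18 had medians of 106.655 and 153.145 TPM, and ESR1 stayed at or below 0.59. Summed, the basal list lay at 104.15 to 4626.48 TPM and the luminal list at 11.28 to 869.58. The leukocyte list lay at 0.16 to 6.4, mostly CD68 (up to 6.37), with PTPRC at 0. The fibroblast list lay at 0.01 to 2.2. The endothelial marker CDH5 was at 0 in all 12 libraries, and PECAM1 was not found.

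Per transcript length, the cytosolic mRNAs were the more abundant set. Over all libraries QARS1 (glutamine; chromosome 3, 49095932 to 49105135 in GRCh38) led with a mean of 114.6 TPM. FARSA (the catalytic subunit for phenylalanine; chromosome 19, 12922479 to 12934037) followed at 72.46 TPM and SARS1 (serine) at 68.21 TPM. The first mitochondrial members in this order were CARS2 (cysteine; chromosome 13, 110641412 to 110713603) at rank 4 with 43.38 TPM and SARS2 (serine; chromosome 19, 38915266 to 38930896) at rank 12 with 17.49 TPM. The order differed between conditions: WARS1 led in CBFB_KO free, at a mean of 11.74 TPM against 7.83 for QARS1, and SARS1 was above FARSA in the mono fraction of both genotypes, for WT at 43.02 against 30.17 TPM. QARS1 had the highest mean in the other 5 conditions. Over all libraries the 7 lowest ranks were all mitochondrial, down to MARS2 at 2.024 TPM and PARS2 at 1.833 TPM. Neighbours in this order were not tested against each other, so no difference between them is claimed. Single genes moved far between libraries: QARS1 ranged from 1.59 to 221.63 TPM and FARSA from 0.85 to 186.79 TPM. Both were lowest in the CBFB_KO free library of replicate 2. There 87.22% of counts came from the mitochondrial genome, which lowers the TPM left to all other genes. All synthetase mRNAs together made up 0.0978% and 0.147% of non-mitochondrial counts in WT free, 0.109% and 0.0718% in WT mono, and 0.287% and 0.431% in WT poly. In CBFB_KO the shares were 0.156% and 0.191% in free, 0.0953% and 0.0669% in mono, and 0.254% and 0.255% in poly.

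The regulatory starts of these genes are shown because ATF4 acts through a short element, the C/EBP-ATF response element (CARE), which many cytosolic synthetase genes carry. RefSeq (GRCh38.p14) windows of 250 bases before to 50 after the gene start were matched for 29 of the 36 members, and searched on both strands for CARE (TGATGNAAN), for NRF-1 sites (GCGCANGCG), bound by a regulator of nuclear genes for mitochondria, and for ETS sites (CCGGAAG). CARE letters were present in 7 of 16 cytosolic and 1 of 13 mitochondrial genes, against 4.45% of all genes in the table and 3.6% of the protein-coding ones. The stretches around 6 of these matches follow in the direction of the gene, with the 9 letters of the match in capitals, which read TGATGNAAN or its reverse complement.
AARS1: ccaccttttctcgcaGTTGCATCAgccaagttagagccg
CARS1: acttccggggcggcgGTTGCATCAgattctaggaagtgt
GARS1: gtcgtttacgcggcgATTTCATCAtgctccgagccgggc
NARS1: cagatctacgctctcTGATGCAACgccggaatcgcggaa
TARS1: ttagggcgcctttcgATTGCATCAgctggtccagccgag
YARS2: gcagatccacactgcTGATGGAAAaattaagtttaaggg

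They lie at chr16:70289671-70289709 (AARS1, minus strand), chr11:3057403-3057441 (CARS1, minus), chr7:30594829-30594867 (GARS1, plus), chr18:57621799-57621837 (NARS1, minus), chr5:33440951-33440989 (TARS1, plus) and chr12:32756071-32756109 (YARS2, minus). Counting all 7 cytosolic genes, the match of 5 was within 34 bases before or 2 bases after the start, and in NARS1 it began at base 15 of the transcript. ETS letters were in 9 of 16 cytosolic and 7 of 13 mitochondrial genes, against 12.2% of all and 16.5% of protein-coding genes. NRF-1 letters were in 3 of 16 and 3 of 13, against 9.02% of all and 12.5% of protein-coding genes. TARS1 (threonine), the member with the largest free-fraction difference between genotypes, has 2 windows. The one at chr5:33440446-33440745, not shown, holds ETS and NRF-1 letters and no CARE. The other is given whole, at chr5:33440715-33441014 on the plus strand, with its NRF-1 and CARE letters in capitals.
TARS1 window: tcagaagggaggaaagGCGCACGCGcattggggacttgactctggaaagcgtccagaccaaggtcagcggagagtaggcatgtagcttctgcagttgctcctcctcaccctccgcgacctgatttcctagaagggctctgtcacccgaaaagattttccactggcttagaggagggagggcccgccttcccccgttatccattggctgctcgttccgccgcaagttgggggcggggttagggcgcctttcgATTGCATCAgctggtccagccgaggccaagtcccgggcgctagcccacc

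The histidine pair shares its start region: HARS1 (cytosolic; chromosome 5, 140673904 to 140691862, minus strand) and HARS2 (mitochondrial; 140691426 to 140699318, plus strand) run away from each other, and their windows overlap. The window of HARS2, at chr5:140691205-140691504 on the plus strand, holds ETS letters on both strands, shown in capitals.
HARS2 window: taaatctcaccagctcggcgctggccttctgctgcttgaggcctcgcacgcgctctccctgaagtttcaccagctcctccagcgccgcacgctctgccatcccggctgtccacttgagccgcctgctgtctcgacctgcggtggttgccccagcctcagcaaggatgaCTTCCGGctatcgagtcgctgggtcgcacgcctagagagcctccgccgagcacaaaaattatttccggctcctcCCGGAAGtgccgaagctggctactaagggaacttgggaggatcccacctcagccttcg

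The first question was where synthetase mRNAs sit in WT cells. They were more abundant in the poly than in the free fraction: 12 of 20 cytosolic and 8 of 16 mitochondrial mRNAs passed the test as higher, against 14.0% of all 16275 genes tested, and 0 passed as lower, against 7.99% of all genes. No member was lower at an unadjusted p under 0.05 either, and DESeq2 also called 0 lower. The median log2 difference, poly minus free, was 1.81 for the cytosolic and 1.64 for the mitochondrial set, against 0.08 for all genes. TARS1 (chromosome 5, 33440696 to 33469539) had the largest, with 0.671 and 2.16 TMM-CPM in WT free and 15.2 and 49.3 in WT poly, a log2 difference of 4.50 ± 0.70 (SE, adjusted p = 0.00239 by edgeR). HARS1 stood at 10.1 and 11.1 TMM-CPM in free and at 121 and 124 in poly, which is 3.53 ± 0.40 on the log2 scale (adjusted p = 0.00111 by edgeR). Among the mitochondrial set, IARS2 (isoleucine; chromosome 1, 220094102 to 220148041) stood at 4.81 and 4.12 TMM-CPM in free and at 25.3 and 63.5 in poly, a difference of 3.32 ± 0.52 (adjusted p = 0.00244 by edgeR). HARS2 rose beside its neighbour, from 4.37 and 3.69 to 29.7 and 37.8 TMM-CPM (3.07 ± 0.37). In these 4 genes no free library reached any poly library, while the poly libraries themselves differed most in TARS1.

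A group of abundant mRNAs did not show this difference. QARS1 stood at 140 and 169 TMM-CPM in WT free and at 173 and 172 in WT poly (log2 difference 0.16 ± 0.54, adjusted p = 0.864 by edgeR). FARSA stood at 168 and 134 in free and at 178 and 187 in poly (0.27 ± 0.71), and SARS2 at 27.2 and 30.1 against 31.0 and 29.4 (0.08 ± 0.53). CARS2 stood at 52.7 and 51.9 in free and at 83.8 and 72.1 in poly, a difference of 0.57 ± 0.58 that did not pass. The 2 members with fitted values below 0 were mitochondrial, RARS2 at -0.46 and PARS2 at -0.45, and neither passed. FARS2, outside the rule, was near 0 as well (-0.01 ± 0.56).

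Against the mono fraction the poly enrichment in WT was similar in number, again with 12 of 20 cytosolic and 8 of 16 mitochondrial mRNAs higher (11.0% of all genes) and 0 lower (9.68% of all genes; 1 member, RARS2, was lower at an unadjusted p under 0.05, and DESeq2 called 0). The medians were 1.83 and 1.16 against -0.04 for all genes. NARS1 (asparagine; chromosome 18, 57600656 to 57622213) differed most, with 1.15 and 2.22 TMM-CPM in mono and 14.6 and 35.5 in poly (3.90 ± 0.60, adjusted p = 0.00365 by edgeR). The calls rested on both WT samples. Without the libraries of WT replicate 2, 9 members passed as higher against free and 0 against mono, and without those of replicate 1, 11 passed against free.

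The same comparison in CBFB_KO cells gave a different picture against free RNA. Poly was higher than free for 5 of 20 cytosolic and 6 of 16 mitochondrial mRNAs (14.6% of all genes), and lower for 1 in each class, NARS1 and WARS2 (16.7% of all genes). The medians were 0.55 and 1.40 against -0.12 for all genes. HARS1 was among those that rose, from 25.5 and 17.7 TMM-CPM in free to 95.9 and 98.4 in poly (2.17 ± 0.38), and so was QARS1, from 61.2 and 16.8 to 137 and 135 (1.80 ± 0.56, adjusted p = 0.0302 by edgeR). NARS1 fell, from 41.2 and 69.8 in free to 18.0 and 18.7 in poly (-1.59 ± 0.54, adjusted p = 0.0444 by edgeR). WARS2 (tryptophan; chromosome 1, 119031216 to 119140671) fell too, from 9.68 and 14.8 to 4.21 and 3.81 (-1.60 ± 0.46, adjusted p = 0.0224 by edgeR). These counts fell with the CBFB_KO poly pair as 1 sample and without the CBFB_KO libraries of either replicate number. They also fell without the CBFB_KO free library of replicate 2 alone. RLE size factors gave 14 higher and 5 lower, and DESeq2 gave 16 and 6. Scaling libraries by their totals alone gave 29 and 0 and moved the median of all genes to 2.05. With an offset per library for the GC content of each gene 8 were higher and 2 lower, but only 5 of the higher calls were shared and neither lower one was: QARS1 and AARS1 no longer passed as higher, nor NARS1 and WARS2 as lower, and WARS1 and PARS2 passed as lower instead. With the like offset for gene length QARS1 and NARS1 also no longer passed.

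Against mono RNA the CBFB_KO counts were nearer to those of WT. Poly was higher for 10 of 20 cytosolic and 5 of 16 mitochondrial mRNAs (8.20% of all genes), and lower for 1, RARS2 (arginine), at -1.59 ± 0.45 (8.66% of all genes). The medians were 1.55 and 0.80 against -0.07 for all genes. NARS1 again differed most, from 1.36 and 2.73 TMM-CPM in mono to 18.0 and 18.7 in poly (3.17 ± 0.58, adjusted p = 0.00771 by edgeR). The count fell to 0 with the poly pair as 1 sample, and also without the CBFB_KO libraries of either replicate number.

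**Figure D1:**
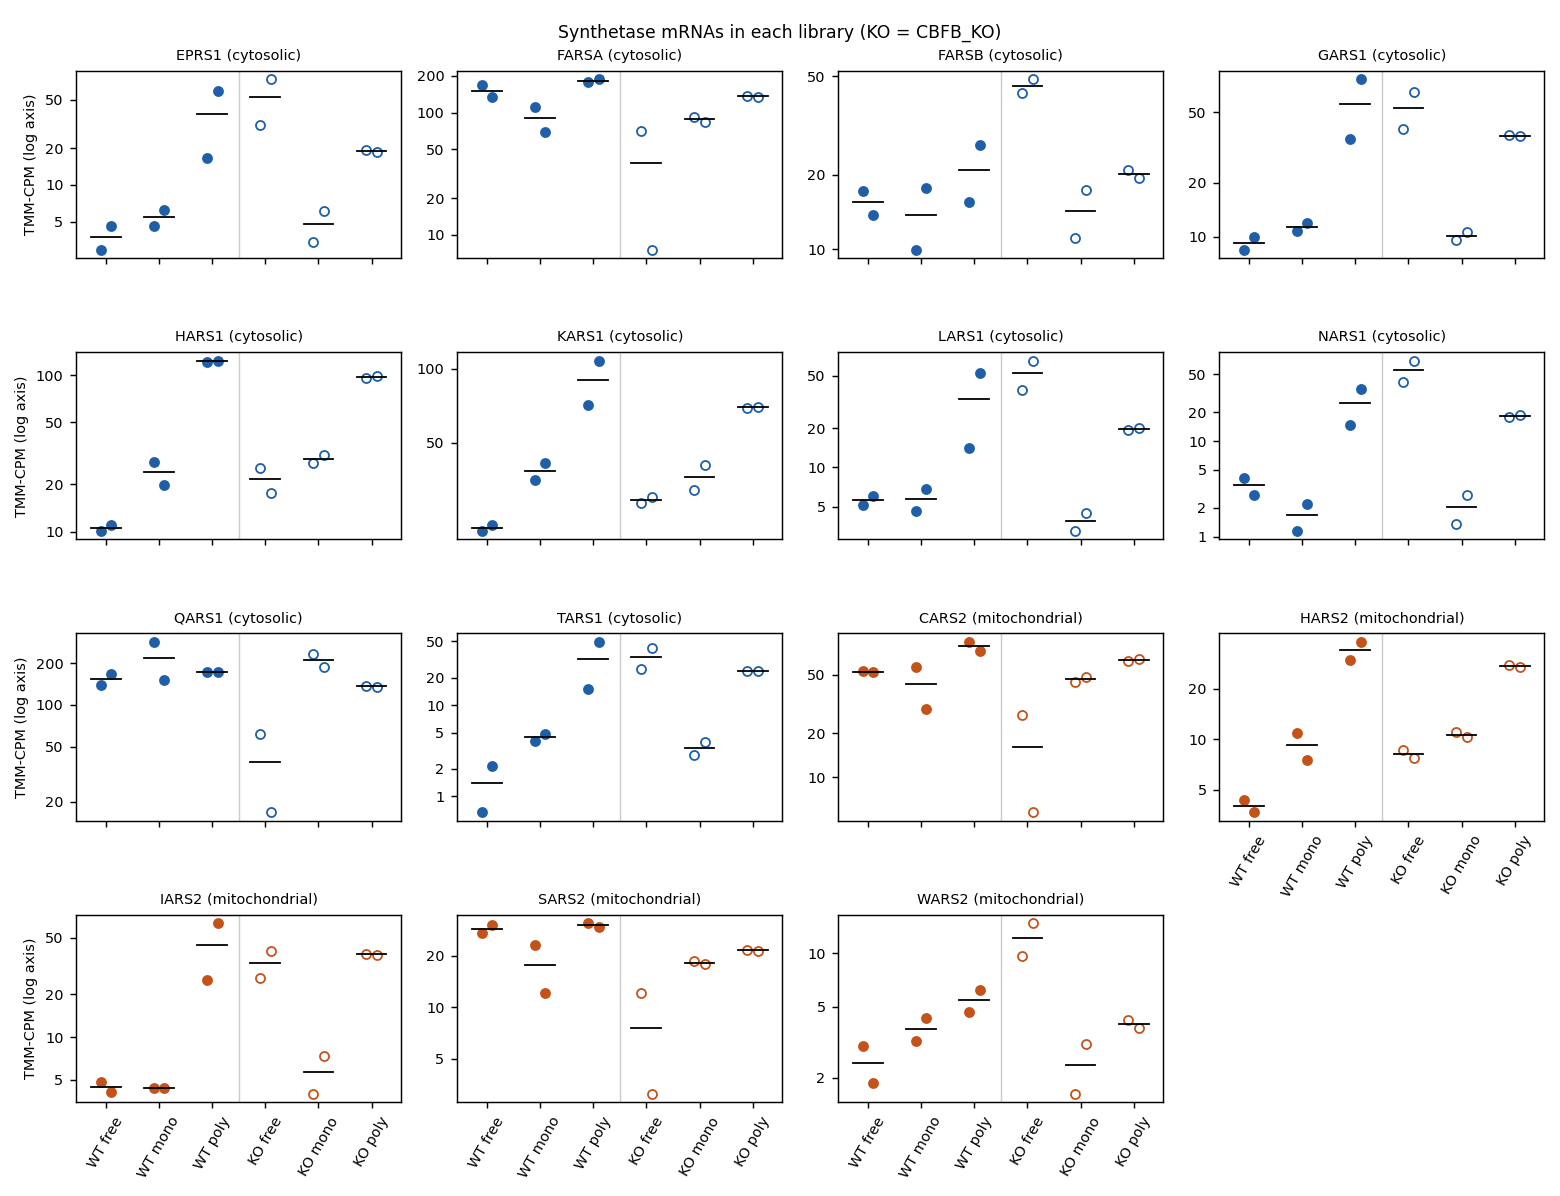
TMM-CPM (log axis) of 15 synthetase mRNAs in the 12 libraries, 1 panel per gene, with 2 points and their mean (bar) per condition, filled for WT and open for CBFB_KO, blue for cytosolic and orange for mitochondrial enzymes. For TARS1, NARS1, EPRS1, LARS1, IARS2 and WARS2 the CBFB_KO free points sit far above the WT free points, for QARS1, FARSA, CARS2 and SARS2 they sit below them, and the mono and poly points of the genotypes lie near each other.

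The genotypes differed in the free fraction. There 12 of 20 cytosolic and 4 of 16 mitochondrial mRNAs were higher in CBFB_KO (24.2% of all genes), and 1 cytosolic and 2 mitochondrial were lower (18.1% of all genes). Read against this wide background, the cytosolic share was above it and the mitochondrial share of 25.0% was close to it. The median log2 difference, CBFB_KO minus WT, was 1.25 for the cytosolic set, 0.02 for the mitochondrial set and 0.04 for all genes. TARS1 rose from 0.671 and 2.16 TMM-CPM in WT free to 24.7 and 42.4 in CBFB_KO free (4.56 ± 0.70, adjusted p = 0.000867 by edgeR). NARS1 rose from 4.14 and 2.75 to 41.2 and 69.8 (4.01 ± 0.60, adjusted p = 0.000755 by edgeR). EPRS1, which joins the glutamate and proline enzymes in 1 protein (chromosome 1, 219968601 to 220046658), rose from 2.94 and 4.57 to 30.9 and 73.5 (3.79 ± 0.67), and LARS1 (leucine; chromosome 5, 146113038 to 146182660) from 5.20 and 6.01 to 39.0 and 65.5 (3.22 ± 0.59). In all 4 the CBFB_KO free libraries lay above both WT free libraries by a wide margin, and above the CBFB_KO poly libraries as well.

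Among mitochondrial mRNAs, IARS2 rose from 4.81 and 4.12 TMM-CPM to 26.0 and 40.6 (2.90 ± 0.51, adjusted p = 0.00194 by edgeR). WARS2 rose from 3.01 and 1.87 to 9.68 and 14.8 (2.32 ± 0.47). HARS1 and HARS2, which share a start region, had the same fitted difference of 1.03, with HARS1 at 10.1 and 11.1 in WT against 25.5 and 17.7 in CBFB_KO, and HARS2 at 4.37 and 3.69 against 8.62 and 7.79 (adjusted p = 0.0422 and 0.0367 by edgeR). Neither of the 2 genes passed without the filter on low counts or in a fit of the 4 free libraries alone. Their differences became -0.58 and -0.63 when libraries were scaled by totals alone, which moved the median of all genes to -1.57.

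QARS1, SARS2 and CARS2 went the other way. QARS1 fell from 140 and 169 TMM-CPM in WT free to 61.2 and 16.8 in CBFB_KO free (-1.98 ± 0.56, adjusted p = 0.0178 by edgeR). SARS2 fell from 27.2 and 30.1 to 12.1 and 3.14 (-1.89 ± 0.55, adjusted p = 0.0197 by edgeR), and CARS2 from 52.7 and 51.9 to 26.5 and 5.77 (-1.69 ± 0.60, adjusted p = 0.0407 by edgeR). In each, replicate 2 of CBFB_KO was far below replicate 1, and without that 1 library none of the 3 passed. None passed with a length offset either, and CARS2 did not pass with a GC offset. FARS2 fell likewise, from 29.5 and 21.8 to 11.1 and 2.02 (-1.93 ± 0.59, adjusted p = 0.0238 by edgeR).

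The subunits of the cytosolic phenylalanyl enzyme, which work as a tetramer of both chains, parted in the free fraction. FARSB (chromosome 2, 222570536 to 222656337) rose from 17.2 and 13.7 TMM-CPM in WT to 42.9 and 48.6 in CBFB_KO (1.57 ± 0.43, adjusted p = 0.016 by edgeR). FARSA went from 168 and 134 to 70.5 and 7.59, a difference of -1.95 ± 0.74 that did not pass (adjusted p = 0.0522 by edgeR). The TPM of FARSA over FARSB was 11.8 and 11.5 in WT free and 2.08 and 0.509 in CBFB_KO free. In poly it was 15.1 and 9.12 in WT against 7.87 and 8.65 in CBFB_KO, and in mono the genotypes overlapped (21.4 and 5.98 against 13.5 and 9.42). The fitted FARSB difference fell to 0.24 (adjusted p = 0.592 by edgeR) with an offset for GC content, described with that property below.

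GARS1 and KARS1, the genes that serve both compartments, differed in size. GARS1 (glycine; chromosome 7, 30594681 to 30634033) rose from 8.45 and 9.99 TMM-CPM in WT free to 39.96 and 64.7 in CBFB_KO free (2.50 ± 0.45, adjusted p = 0.00212 by edgeR). KARS1 (lysine; chromosome 16, 75627474 to 75648643) stood at 21.9 and 23.1 against 28.5 and 29.9 (0.38 ± 0.36, adjusted p = 0.414 by edgeR), with its sign not kept under a GC offset (-0.34) or scaling by totals alone (-1.32). The calls of this comparison fell from 16 higher and 3 lower to 11 and 0 without the CBFB_KO free library of replicate 2, to 6 and 0 in a fit of the 4 free libraries alone, to 10 and 0 without WT replicate 1, to 11 and 0 without WT replicate 2 and to 6 and 0 without CBFB_KO replicate 2, and were 11 and 5 without CBFB_KO replicate 1. Scaling by library totals alone gave 3 higher and 13 lower, with medians of -0.47 for the cytosolic and -1.61 for the mitochondrial set against -1.57 for all genes.

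In the mono and poly fractions no synthetase mRNA passed between genotypes. The counts were 0 of 36 in mono, against 0.0307% of all genes higher and 0.117% lower, and 0 of 36 in poly, against 0.0246% higher and 0.166% lower. By an unadjusted p under 0.05, and by DESeq2, the member counts were 0 in both fractions too. In mono the medians were -0.20 for the cytosolic and 0.13 for the mitochondrial set against 0.03 for all genes. In poly they were -0.52 and -0.36 against -0.03, and the fitted value was below 0 for 34 of 36 members, RARS1 (0.04) and RARS2 (0.20) being the exceptions. Both CBFB_KO poly libraries lay below both WT poly libraries for 12 of 20 cytosolic and 12 of 16 mitochondrial mRNAs, against 25.0% of all genes, and above them for 0, against 24.7%. EPRS1 had the largest fitted value, with 16.7 and 59.4 TMM-CPM in WT poly and 19.2 and 18.5 in CBFB_KO poly (-1.01 ± 0.60), and here the groups overlapped.

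The ratio of poly to free was then compared between genotypes as an interaction. It was lower in CBFB_KO for 8 of 20 cytosolic and 3 of 16 mitochondrial mRNAs (14.3% of all genes), and higher for 0 (4.10% of all genes; 0 at an unadjusted p under 0.05 and 1 by DESeq2). The median difference of log2 ratios was -1.51 for the cytosolic and -0.57 for the mitochondrial set against -0.10 for all genes. TARS1 led at -4.99 ± 0.91 (adjusted p = 0.00434 by edgeR), followed by EPRS1 at -4.81 ± 0.89, NARS1 at -4.46 ± 0.79 and LARS1 at -3.99 ± 0.80. GARS1 (-3.10 ± 0.62), IARS1 (-2.85 ± 0.77), WARS1 (-2.38 ± 0.58) and AARS1 (-2.15 ± 0.57) complete the cytosolic calls. The mitochondrial calls included IARS2 (-3.11 ± 0.69) and WARS2 (-2.77 ± 0.65). On the other side, QARS1 (1.64 ± 0.77), FARSA (1.51 ± 1.01), SARS2 (1.40 ± 0.75) and CARS2 (1.38 ± 0.82) had values above 0 that did not pass. With a length offset 9 passed as lower, 6 of them shared, and AARS1, IARS1, IARS2 and LARS1 were among those that did not, while with a GC offset 10 passed, 9 of them shared, without IARS1. This ratio uses the same free libraries as the comparison before it, so it is not separate evidence of that difference.

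**Figure D2:**
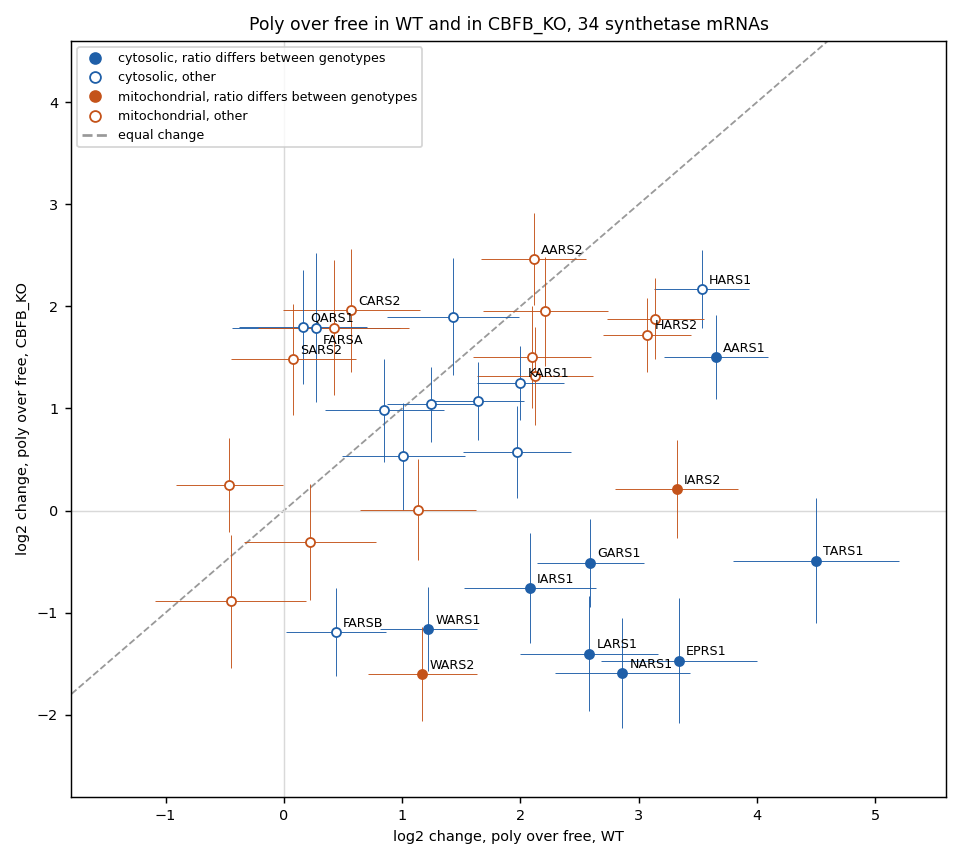
Fitted log2 difference of poly over free in WT (x axis) and in CBFB_KO (y axis) for 34 synthetase mRNAs, with SE bars, blue for cytosolic and orange for mitochondrial enzymes, filled where the ratio differed between genotypes at an adjusted p under 0.05, and a dashed line of equal change. The 10 filled points all lie below the line, from AARS1 and IARS2 with values above 0 on both axes to EPRS1, LARS1 and NARS1, which are above 0 in WT and below 0 in CBFB_KO.

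Without the libraries of CBFB_KO replicate 2 the interaction calls fell from 11 to 0, without those of WT replicate 2 to 4, with the CBFB_KO poly pair as 1 sample to 4, and with scaling by totals alone to 3 (TARS1, EPRS1 and NARS1), where the median of all genes was 1.54 and that of the members 0.68. Leaving out the CBFB_KO replicate 1 libraries gave 8 lower and 5 higher (QARS1, FARSA, CARS2, SARS2 and VARS2). For the ratio of poly to mono, no member and no gene passed (0% of all genes higher, 0% lower), with 0 members at an unadjusted p under 0.05 or by DESeq2, while 50 genes were higher and 114 lower at an unadjusted p under 0.05. The member values for that ratio lay between -0.84 and 0.23.

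Cytosolic and mitochondrial enzymes for the same amino acid were set side by side, which gave 16 pairs, EPRS1 being paired with EARS2 and with PARS2. In WT the poly minus free difference was larger for the cytosolic partner in 13 pairs, with a median gap of 0.90 on the log2 scale. In CBFB_KO it was larger for the mitochondrial partner in 11 pairs, with a median of cytosolic minus mitochondrial of -0.89. In the free fraction between genotypes, the cytosolic partner had the larger value in 10 pairs and the smaller in 5, with the histidine pair equal and a median gap of 1.14 on the log2 scale. The widest gap was that of threonine, 4.56 for TARS1 against -0.38 for TARS2. Isoleucine, tryptophan, tyrosine and methionine were among those that went the other way, as with IARS2 at 2.90 against IARS1 at 2.19. In the poly fraction the mitochondrial partner had the larger value in 15 of 16 pairs, with a median of cytosolic minus mitochondrial of -0.26, smaller than the SE of any single member.

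The summed TPM of mitochondrial over cytosolic members gives another view of this balance per library. It was 0.282 and 0.293 in WT free, 0.213 and 0.232 in WT mono, and 0.240 and 0.228 in WT poly. In CBFB_KO it was 0.203 and 0.108 in free, 0.244 and 0.274 in mono, and 0.264 and 0.264 in poly. The mean in free was 0.287 ± 0.00771 in WT and 0.156 ± 0.0667 in CBFB_KO (SD, n = 2). Genotypes did not overlap in any fraction, being lower in CBFB_KO in free and higher in mono and poly, but without GARS1 and KARS1 in the cytosolic sum they overlapped in mono (0.224 and 0.259 in WT against 0.258 and 0.302 in CBFB_KO). From counts in place of TPM, the ratio in WT free (0.2393 and 0.2444) lay below that in WT poly (0.2551 and 0.2455), the reverse of the TPM order. No test was made, since an exact two-sided permutation test of 2 libraries against 2 cannot go below p = 0.333. QARS1, FARSA and SARS1 carried much of the cytosolic sum: in WT free, QARS1 alone made up 27.7% and 26.8% of it, against 11.9% and 2.98% in CBFB_KO free.

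**Figure D3:**
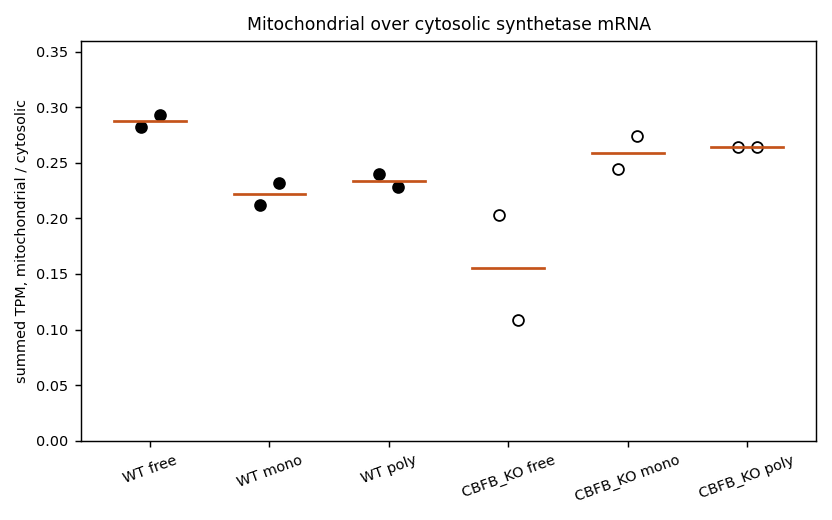
Summed TPM of the 16 mitochondrial over that of the 20 cytosolic synthetase mRNAs in each library (points, filled for WT and open for CBFB_KO) with the mean of each condition (line). The CBFB_KO free libraries, at 0.203 and 0.108, lie below the other 10, which span 0.213 to 0.293. From counts in place of TPM, CBFB_KO free replicate 1 (0.224) lay above both WT mono libraries (0.2108 and 0.2104).

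The members share base composition with their response, a property the rule did not use. GC content of the longest coding transcript (GENCODE 29) ran from 41.2% to 62.6% over the members, with medians of 50.0% for the cytosolic and 50.3% for the mitochondrial set. The 18 members below the common median of 50.3% had a median free-fraction difference of 1.76, with 13 higher and 0 lower, and the 18 above it one of -0.38, with 3 higher and 3 lower. The split held in each class: 9 of 10 low-GC and 3 of 10 high-GC cytosolic mRNAs were higher in CBFB_KO free, and 4 of 8 and 0 of 8 mitochondrial ones. Pearson's r of GC content with this difference was -0.75 over the 36 members, which share their libraries, and -0.40 over the 13041 tested genes with a GC value. With coding length (log2) it was 0.12 over the members and 0.35 over those genes. With transcript length (log2) it was 0.37 over the members and 0.41 over those genes.

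The same trend ran through all genes. Among genes of 40 to 45% GC the median free-fraction difference was 1.45 and 41.5% were higher, while the 13 members in that range had a median of 2.19 and 11 of them were higher. At 60% and above, the median of all genes was -1.25 and that of the 4 members -1.78. Against genes of like GC content, TARS1, NARS1, EPRS1 and LARS1 stood above the median of their range and RARS2, at -0.51 with 41.9% GC, stood below it. With an offset per library for GC content, added after the trend was seen, 11 members stayed higher and 3 were lower (QARS1 and SARS2 as before, and RARS2 in place of CARS2), with medians of 0.50 for the cytosolic and 0.23 for the mitochondrial set against 0.04 for all genes. TARS1 kept 3.48 (adjusted p = 0.000608), NARS1 2.92 and EPRS1 2.52 by edgeR in that fit, while RARS1, FARSB and IARS1 were among the 5 that no longer passed. The part of GC content, of transcript length, of the mitochondrial share and of depth in the free-fraction difference was not tested. Both CBFB_KO free libraries carry all of these, so they and the genotype cannot be told apart.

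**Figure D4:**
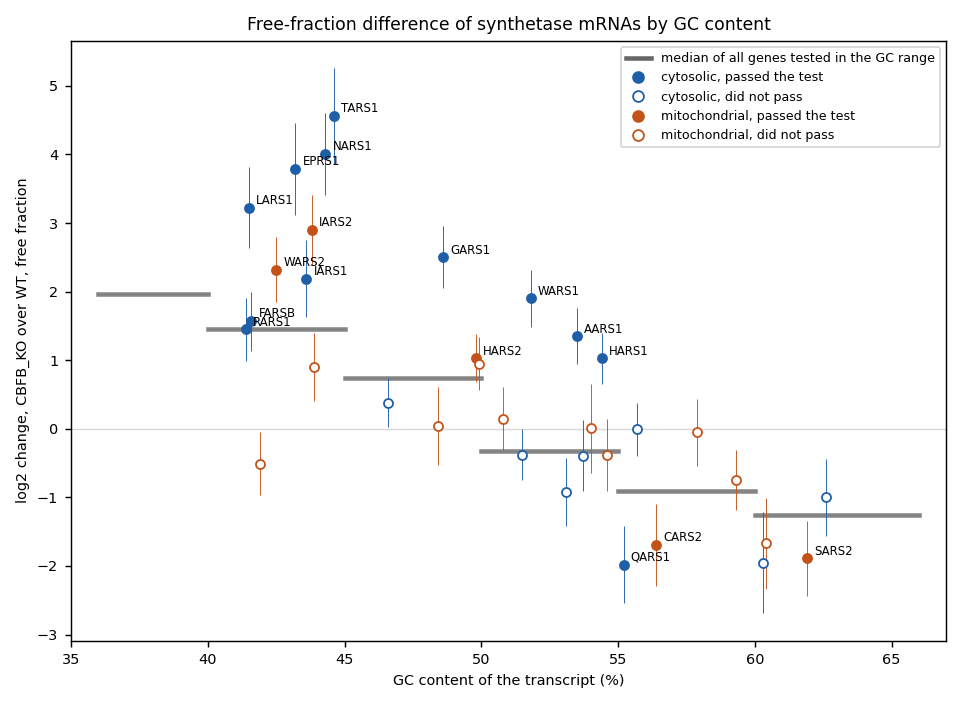
Fitted log2 difference of CBFB_KO over WT in the free fraction (y axis, with SE) against transcript GC content in percent (x axis) for 34 synthetase mRNAs, blue for cytosolic and orange for mitochondrial, filled where the test was passed, with grey bars for the median of all tested genes in each GC range. Members tend to fall with GC, with values from 4.56 (TARS1, 44.6% GC) to -1.98 (QARS1, 55.2% GC). Among the points shown, RARS1 has the lowest GC (41.4%, at 1.45) and VARS1 the highest (62.6%, at -1.0). The grey bars fall from 1.96 below 40% GC, a range without members, to -1.25 at 60% and above.

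Members with and without CARE letters were also set side by side. In the free fraction 5 of the 7 cytosolic genes with CARE were higher in CBFB_KO (AARS1, GARS1, IARS1, NARS1 and TARS1). So were 5 of the 9 matched ones without (EPRS1, FARSB, HARS1, RARS1 and WARS1), against 24.2% of all genes. The medians were 2.19 with CARE and 1.03 without. CARS1 (-0.92) and MARS1 (-0.39), the other 2 with CARE, were below 0 and did not pass. For the poly to free ratio 5 of 7 and 2 of 9 were lower, with medians of -2.85 and -1.36, against 14.3% of all genes. AARS1 and IARS1 passed in neither comparison with a length offset, and IARS1 in neither with a GC offset. In WT, 5 of 7 and 5 of 9 were higher in poly than in free, against 14.0% of all genes. The only mitochondrial gene with the letters, YARS2, stood at 2.97 and 2.14 TMM-CPM in WT free and at 5.56 and 4.25 in CBFB_KO free (0.95 ± 0.39, adjusted p = 0.0697 by edgeR). These are counts of letters in a window, and no binding was measured.

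Of the non-enzyme parts of the multi-synthetase complex, AIMP1 rose in CBFB_KO free from 4.31 and 4.42 to 7.77 and 12.8 TMM-CPM (1.23 ± 0.46, adjusted p = 0.0481 by edgeR) and AIMP2 fell from 14.6 and 13.5 to 7.01 and 4.55 (-1.27 ± 0.37, adjusted p = 0.0195 by edgeR), while EEF1E1 stood at 6.57 and 5.89 against 9.64 and 20.3 (1.26 ± 0.54, adjusted p = 0.0774 by edgeR).

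Across 13 other genes of tRNA charging and proofreading, all tested, 1 rose and 3 fell in CBFB_KO free, against 24.2% and 18.1% of all genes, so the falls were near the background. Beside AIMP2, the falls were DTD2, which encodes a proofreading enzyme (-1.94 ± 0.36), and MTFMT, which formylates the mitochondrial initiator tRNA (-1.78 ± 0.35). DTD2 was also the one gene of the list with a higher poly to free ratio in CBFB_KO (1.95 ± 0.50, adjusted p = 0.0226 by edgeR). In WT, 4 were higher in poly than in free (14.0% of all genes), namely GATB (2.57 ± 0.44), AIMP2 (1.93 ± 0.37), DTD1 (1.39 ± 0.43) and AARSD1 (1.04 ± 0.34). DTD2 was lower there, at 33.9 and 47.2 TMM-CPM in free and 5.63 and 4.99 in poly (-2.93 ± 0.38, adjusted p = 0.00148 by edgeR). In the mono and poly fractions 0 of the 13 passed between genotypes, and 0 were at an unadjusted p under 0.05.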

How the data were processed

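RNA from 12 libraries was analysed. Per the labels, the authors trimmed with Trimmomatic, aligned with STAR and quantified with RSEM on hg19 (versions not given in the sources used here). The authors deposited RSEM expected counts, estimated reads per gene without normalization, and TPM, scaled by effective length and library total. The labels name a poly-A mRNA kit, while the study's general methods name rRNA removal. Coordinates, GC content and promoters are from GENCODE 29 (GRCh38) and RefSeq (GRCh38.p14), not hg19. No protein table or genome was used here.

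Gene identifiers were matched to symbols through a reference list of gene names, and through GENCODE 29 where that list gave none. The rounded expected counts went into edgeR 4.0.16 under R 4.3.3: TMM, filterByExpr over 6 conditions, glmQLFit and glmQLFTest over all 12 libraries, 16275 genes, two-sided, Benjamini-Hochberg adjusted p under 0.05. SE is the log2 difference over the square root of F. TMM-CPM was used between libraries and TPM between genes. DESeq2 1.42.0, other scalings, filters, offsets and left-out libraries were alternatives. A GC offset and a fit without 1 CBFB_KO free library were added after seeing the data. The fits were tested on simulated data. Python 3.11.15 with pandas 2.3.3 was used for the rest.

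Members and lists were chosen with earlier results of these data known. Values per library are given for up to 4 members per class and direction with the largest called differences in free and in the poly to free ratio, the 2 most abundant per class, and GARS1, KARS1, EPRS1, FARSA, FARSB, HARS1 and HARS2. Other named genes (YARS2, the complex parts and some not called) come from the fixed pathway list or were chosen after their values were seen. The floor of 3 counts is 4.7e-06 to 7.3e-06 percent of a library, for counting error only. Values of 2 members and some sequences are not reported here, and those members remain in the counts and medians.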

Additional observations from a re-analysis of the deposited data

Results flagged for a closer look

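Of the differences in the poly to free ratio between genotypes, by the interaction test of edgeR, 10 synthetase mRNAs are given here. The difference of log2 ratios, CBFB_KO minus WT, was -4.99 for TARS1, -4.81 for EPRS1, -4.46 for NARS1, -3.99 for LARS1, -3.11 for IARS2, -3.10 for GARS1, -2.85 for IARS1, -2.77 for WARS2, -2.38 for WARS1 and -2.15 for AARS1. In WT the fitted poly minus free values of the 10 ran from 1.17 (WARS2) to 4.50 (TARS1). In CBFB_KO they ran between -1.60 (WARS2) and 1.50 (AARS1). Values moving with these differences are the mitochondrial share of the CBFB_KO free libraries (71.56% and 87.22%) and their lower non-mitochondrial counts (13568143 and 5247878), whose part was not tested. GC content moves with them too: it had a Pearson's r of 0.70 with this ratio difference over the 36 members, which share their libraries, and 9 of the 18 low-GC but 2 of the 18 high-GC members passed as lower. For transcript length (log2) Pearson's r with the ratio difference was -0.42 over the members and -0.41 over the tested genes with a value. IARS1 did not pass with a GC offset, and AARS1, IARS1, IARS2 and LARS1 did not pass with a length offset. With 2 libraries per condition no single library could be checked as an outlier.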

How the results depend on the processing

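With fewer non-mitochondrial counts in the CBFB_KO free libraries, differences to them rest on the least depth. Counts of members below are higher, lower. The labels do not say whether fractions of 1 genotype with the same replicate number came from 1 gradient, and the main fit used no pairing. Correlations of replicate deviations between conditions ran from -0.16 to 0.28, which cannot decide this. A replicate block gave 4 lower in CBFB_KO poly versus free and 5 lower in free between genotypes, and a block within genotype 0 lower in CBFB_KO poly versus mono, while other block counts stayed within 1.5 times the main ones. Scaling by totals alone gave 29 and 0 in CBFB_KO poly versus free, 0 lower in CBFB_KO poly versus mono, 3 lower ratios and 3 and 13 in free between genotypes, and turned FARSB (-0.14), HARS1 (-0.58), HARS2 (-0.63) and KARS1 (-1.32) in free and their ratios (0.08, 0.25, 0.31 and 0.95). These follow the median of all genes, which that scaling moved to -1.57 in free and 1.54 for the ratio. RLE gave 5 lower in CBFB_KO poly versus free and 5 lower in free between genotypes, DESeq2 gave 6 and 5 lower there and 1 higher ratio, and no filter gave 4 and 5 lower. The length offset gave 9 higher in CBFB_KO poly versus mono. The fit of only the libraries compared gave 25 higher there and 6 and 0 in free between genotypes. The poly pair as 1 sample gave 4 and 0 against free, 0 and 0 against mono, and 4 lower ratios. Without the CBFB_KO free library of replicate 2 the counts were 22 and 21 higher in WT poly versus free and versus mono, 7 and 0 in CBFB_KO poly versus free, 10 lower ratios, and 11 and 0 in free between genotypes. The GC offset gave 1 lower in WT poly versus mono and 1 higher ratio, also with the replicate block, which then gave 7 and 1 in CBFB_KO poly versus free, and it turned KARS1 to -0.34 in free and 0.01 for the ratio (0.00 with the block).

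Leaving out 1 replicate number of 1 genotype gave 9 to 19 higher in WT poly versus free, 0 to 19 in WT poly versus mono, 0 to 13 higher and 0 to 3 lower in CBFB_KO poly versus free, 0 to 18 and 0 to 1 in CBFB_KO poly versus mono, 0 to 5 higher and 0 to 9 lower ratios, and 6 to 11 higher and 0 to 5 lower in free between genotypes. The cause of these changes was not tested. The mitochondrial over cytosolic ratio was 0.242, 0.250 and 0.274 from counts in WT free, WT poly and CBFB_KO poly. WT free thus lay below WT poly from counts and above it from TPM. Without GARS1 and KARS1 it was 0.310, 0.241, 0.260 and 0.296 in WT free, mono, poly and CBFB_KO poly. As a ratio of class medians it was 0.346, 0.330 and 0.257 in WT free, mono and poly, and 0.504 and 0.380 in CBFB_KO mono and poly.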
